A study of Homo sapiens with 12 samples.

Results

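The HOX genes were followed across 12 Affymetrix human expression arrays of RD cells, which come from an embryonal rhabdomyosarcoma, a muscle-like tumour, and grow as a line. A probe set was taken as a member when its only symbol in the array annotation was HOX followed by A, B, C or D and a number, with no filter on signal, and each probe set was kept on its own. This gave 31 probe sets for 24 genes, out of 22215 probe sets that were not controls. The RefSeq gene table lists 39 HOX genes. By this rule the members covered 1 of 11 genes of the HOXA cluster (HOXA2, 1 probe set), 9 of 10 of HOXB (13 probe sets), 7 of 9 of HOXC (7 probe sets) and 7 of 9 of HOXD (10 probe sets). A further 3 probe sets carried a HOX symbol together with another symbol and were not members, and 2107 had no symbol. HOXA genes other than HOXA2 are not described here.

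The RD cells had been transduced either with PAX3-FKHR-ER, the fusion protein of alveolar rhabdomyosarcoma made inducible by an altered hormone-binding part of the estrogen receptor (ER), or with the vector pK1 alone. Each kind was grown without 4-hydroxytamoxifen (4-OHT) or with 30 nM of it for 24 h, and each of the 4 groups had 3 arrays. All groups share the RD background, the medium and a transduction. The design text speaks of separate populations for each construct, but no label ties a replicate number to a population, so the p-values below measure only the spread between these samples. 4-OHT is the ligand that lets an estrogen receptor domain, and the protein joined to it, act in the nucleus.

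HOX genes encode homeodomain transcription factors that give cells their position along the body axis and along the limb. They lie in clusters in which genes with low numbers act towards the head or the trunk end of a limb, and genes with high numbers towards the tail or the digits. Cells of adult tissues and tumours often keep part of the HOX pattern of the place they came from, and the clusters are held on or off by trithorax and Polycomb proteins and opened by retinoic acid during development. HOX proteins bind DNA with partners of the TALE class, such as PBX and MEIS proteins.

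HOXD13, HOXD12, HOXD11 and HOXD10 stand next to each other in the HOXD cluster, and their windows of 250 bases before to 50 bases after the start are shown because 1 probe set each of HOXD13, HOXD11 and HOXD10 was highest on the same pair of arrays, while HOXD12, which lies between them, stayed under 3 on all arrays. The window of HOXC4 and HOXC5, the same in both entries, is shown because both genes were low on 4 of the 12 arrays. The sequences are RefSeq's, build GRCh38.p14, plus strand in every case: HOXD13 at chr2:176092471-176092770, HOXD12 at chr2:176099545-176099844, HOXD11 at chr2:176107030-176107329, HOXD10 at chr2:176116528-176116827, and HOXC4 with HOXC5 at chr12:54016638-54016937. Capitals mark TATAAA and ATTA on either strand, the core of a TATA box and the core that many homeodomains bind.
HOXD13: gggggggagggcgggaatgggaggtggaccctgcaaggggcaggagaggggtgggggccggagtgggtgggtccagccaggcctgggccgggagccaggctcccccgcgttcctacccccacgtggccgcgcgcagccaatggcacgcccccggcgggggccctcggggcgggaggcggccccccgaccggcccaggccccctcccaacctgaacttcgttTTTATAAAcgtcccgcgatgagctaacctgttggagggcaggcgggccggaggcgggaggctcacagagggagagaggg
HOXD12: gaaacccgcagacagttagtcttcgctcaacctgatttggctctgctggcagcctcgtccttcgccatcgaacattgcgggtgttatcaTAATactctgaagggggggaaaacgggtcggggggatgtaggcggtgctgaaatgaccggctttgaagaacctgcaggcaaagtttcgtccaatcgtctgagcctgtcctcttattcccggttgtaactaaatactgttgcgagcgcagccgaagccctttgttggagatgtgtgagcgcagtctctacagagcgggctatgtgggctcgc
HOXD11: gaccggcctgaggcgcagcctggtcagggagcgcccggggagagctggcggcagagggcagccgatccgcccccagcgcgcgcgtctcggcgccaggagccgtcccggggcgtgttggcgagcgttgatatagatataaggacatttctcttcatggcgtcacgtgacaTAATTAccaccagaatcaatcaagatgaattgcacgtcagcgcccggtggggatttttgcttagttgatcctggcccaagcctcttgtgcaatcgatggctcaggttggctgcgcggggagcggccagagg
HOXD10: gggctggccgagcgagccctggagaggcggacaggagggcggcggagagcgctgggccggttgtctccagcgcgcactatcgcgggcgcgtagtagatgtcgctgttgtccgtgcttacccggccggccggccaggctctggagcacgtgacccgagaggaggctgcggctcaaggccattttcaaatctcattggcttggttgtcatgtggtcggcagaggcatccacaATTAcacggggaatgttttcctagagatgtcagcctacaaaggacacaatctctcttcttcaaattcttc
HOXC4 and HOXC5: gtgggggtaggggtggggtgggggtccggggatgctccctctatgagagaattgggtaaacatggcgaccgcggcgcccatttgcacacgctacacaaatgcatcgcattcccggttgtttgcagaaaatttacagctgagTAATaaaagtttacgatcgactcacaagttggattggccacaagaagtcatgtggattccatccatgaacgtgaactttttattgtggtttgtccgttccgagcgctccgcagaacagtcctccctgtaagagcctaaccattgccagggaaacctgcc

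Of these windows the one of HOXD13 held TATAAA, which overlaps itself on both strands there, and 11.6% of 34943 RefSeq windows of the same length hold that motif. ATTA was found in the other windows, 2 times overlapping in HOXD11 and 1 time each in HOXD12, HOXD10 and HOXC4 with HOXC5, against 50.3% of all windows with at least 1. TGATNNAT, a composite site of PBX and HOX proteins searched on both strands, occurred 1 time in HOXD11 and in none of the others, and in 7.42% of all windows. The HOXD13 window was 74.0% G and C with 24 CpG dinucleotides, HOXD11 62.3% with 27, HOXD10 60.0% with 23, HOXD12 54.3% with 19, and HOXC4 with HOXC5 51.7% with 15, against medians of 58.7% and 14. A match of letters is a description of the window only.

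Signals are the deposited MAS5 intensities on a linear scale, and differences are on log2(signal + 16), which understates the change of dim probe sets. The median signal over all probe sets was 50.4 to 62.8 per array. No detection calls were used, so a low signal is given as a value, not as absence, and levels of different probe sets are not comparable as RNA amounts. The number of arrays limits the precision. In bulk RNA, fewer cells with a transcript and less of it per cell cannot be told apart. The probe sets for the construct's parts did not separate the constructs: FOXO1 (FKHR) 202723_s_at ranged from 78.3 to 146 in PAX3-FKHR-ER cells and from 36.1 to 214 in pK1 cells, and the 3 PAX3 probe sets overlapped as well.

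Some arrays stood apart and are named before the results. On the 4 replicate 1 arrays, 1 in each group, the 24 probe sets for poly-A control RNA had median signals of 2.58 to 7.41, against 118 to 291 on the other 8 arrays, while the hybridization controls were 249 to 346 and 212 to 448. The pK1 replicate 2 arrays, without and with 4-OHT, had low signal for markers of the muscle lineage: the 11 myogenic probe sets summed to 713 to 867, against 2944 to 5529 on the other 10 arrays, and 8 of the 11 were lower there than on each of those 10. MYOD1, the regulator that defines the lineage, was at 222 and 197 against 322 to 2098, and CHRNA1, a subunit of the muscle acetylcholine receptor, at 344 and 245 against 1161 to 2560. MYF5 was under 16 on all 12 arrays. Some markers of other cells followed those 2 arrays. KRT18, the bright epithelial marker, was at 645 and 742 against 749 to 1868. COL1A2 202403_s_at, a fibroblast collagen, was at 7.14 and 5.62 against 37.4 to 323. In all, 2 of 6 epithelial and 1 of 14 fibroblast probe sets were below all other arrays there and none above. The second epithelial one was CDH1 201130_s_at, at 1.13 and 0.93 against 1.34 to 13.7. Of all probe sets, 7.13% were below all other arrays on that pair and 9.37% above. The marker counts, myogenic ones included, are to be read against those shares. On pK1 replicate 2 with 4-OHT the log2 ratio of the 3' to the 5' probe set was 0.70 for ACTB, against -0.26 to 0.07 on the other 11 arrays, and 0.23 for GAPDH, against -0.25 to -0.03, signs of RNA quality whose part in the results was not tested. None of the haematopoietic, endothelial and neural probe sets was below or above all other arrays on that pair. Summed, haematopoietic markers summed to 63.4 to 144 over the 12 arrays, with PTPRC under 29 in each probe set, endothelial markers to 33.3 to 126, neural markers to 66.9 to 199.9, fibroblast markers to 645 to 1719 (743 to 895 on the pK1 replicate 2 arrays) and epithelial markers, mostly KRT18, to 733 to 1932 (733 to 813).

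Across the 12 arrays, 10 of the 31 HOX probe sets, for 8 genes, had a mean signal of at least 100. They were 6 of 13 of the HOXB cluster and 4 of 7 of HOXC, with none of the 10 of HOXD and none of HOXA2. A mean over 36.7, the value under which 40% of all probe sets lie, was reached by 17 of the 31. The highest of the 12 values was under 100 in 14 probe sets and under 36.7 in 7.

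**Figure D1:**
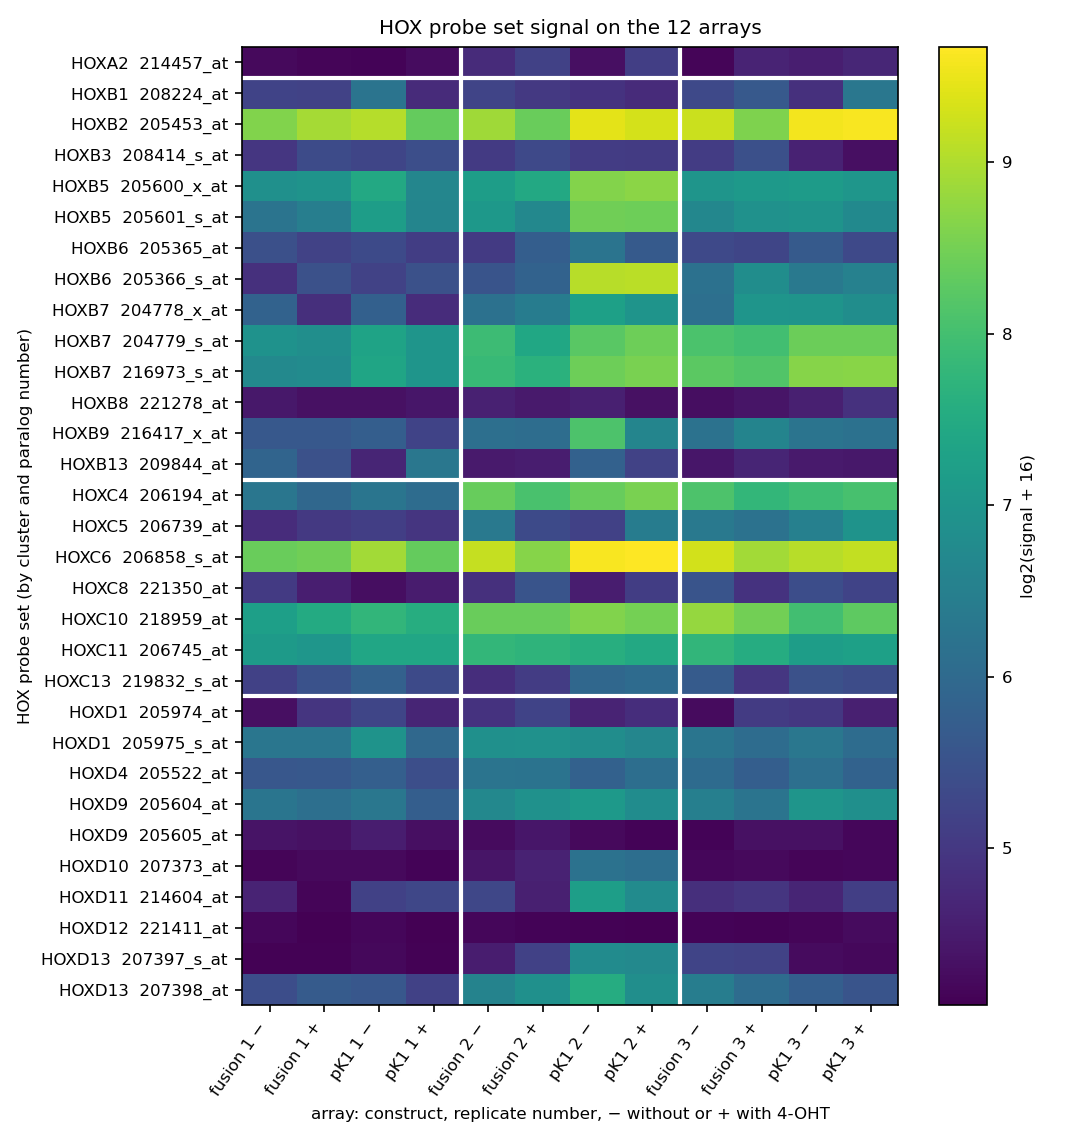
Signal of each HOX probe set (rows, by cluster and paralog number, white lines between clusters) on each array (columns, fusion for PAX3-FKHR-ER or pK1, replicate number, − without or + with 4-OHT, white lines between replicate numbers) as log2(signal + 16). HOXC4 and the HOXB7 probe sets are dark in the first 4 columns, and HOXB5, HOXB6 205366_s_at, HOXD10, HOXD11 and HOXD13 207397_s_at are brightest in the columns of pK1 replicate 2.

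In the HOXB cluster, HOXB2 is a hindbrain paralog of low number. Values below are in the order of replicates 1, 2 and 3. HOXB2 was at 377, 456 and 583 in PAX3-FKHR-ER cells without 4-OHT and at 466, 319.8 and 369 with it, and at 511, 683 and 752 in pK1 cells without and 311, 617 and 767 with it. The groups overlapped, and its lowest and highest arrays were both pK1 with 4-OHT. HOXB5, of trunk position, was measured by 2 probe sets. Probe set 205600_x_at gave 103, 131 and 111 without and 109, 160.4 and 122 with 4-OHT in PAX3-FKHR-ER cells, and 159, 381 and 125 without and 84.0, 398 and 114 with it in pK1 cells. Its pK1 replicate 2 arrays were high, and the other 10 lay between 84.0 and 160.4. Probe set 205601_s_at moved the same way, with 338 and 329 on those arrays and 59.6 to 130.1 on the others.

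HOXB6, the next gene, was the clearest case of a single pair of arrays. Probe set 205366_s_at gave 13.1, 30.1 and 56.3 without and 28.2, 41.6 and 98.1 with 4-OHT in PAX3-FKHR-ER cells, and 20.2, 518 and 65.6 without and 28.3, 530.0 and 77.6 with it in pK1 cells. Both pK1 replicate 2 arrays were above 500, and no other array reached 100. The other HOXB6 probe set, 205365_at, stayed between 16.7 and 59.3, with its highest value also on pK1 replicate 2 without 4-OHT.

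HOXB7 followed the replicate number instead. Probe set 216973_s_at gave 89.3, 213 and 293 without and 94.2, 184 and 269.9 with 4-OHT in PAX3-FKHR-ER cells, and 149.9, 332 and 385 without and 112, 361 and 391 with it in pK1 cells. All replicate 1 arrays were below all others. Probe set 204779_s_at (98.7 to 333) and 204778_x_at (11.7 to 137) were also lower on every replicate 1 array. HOXB9, a posterior trunk paralog, was measured by 216417_x_at at 33.0, 54.3 and 56.7 without and 33.2, 52.1 and 81.1 with 4-OHT in PAX3-FKHR-ER cells, and at 38.1, 259 and 59.2 without and 21.0, 83.5 and 55.8 with it in pK1 cells. The replicate 1 arrays were again the lowest, and 1 array, pK1 replicate 2 without 4-OHT, stood above the rest. HOXB1, HOXB3 and HOXB13 stayed under 64 on all arrays and HOXB8 under 14.

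In the HOXC cluster, HOXC4 split the arrays by replicate number. It was at 61.6, 314 and 258 without and 45.5, 252 and 206 with 4-OHT in PAX3-FKHR-ER cells, and at 60.6, 315 and 228 without and 51.1, 360.0 and 248 with it in pK1 cells. The 4 replicate 1 values ended at 61.6 and the other 8 began at 206. HOXC5 was dimmer, with 11.6, 65.7 and 64.8 without and 16.3, 24.3 and 57.0 with 4-OHT in PAX3-FKHR-ER cells, and 18.9, 20.1 and 75.6 without and 14.9, 70.5 and 107 with it in pK1 cells. Replicate 1 was lowest here too, but by little against the dimmest of the other arrays.

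HOXC6, a thoracic paralog, was at 322, 565 and 609 without and 338, 389 and 459 with 4-OHT in PAX3-FKHR-ER cells, and at 457, 774 and 518 without and 310.4, 799 and 559.7 with it in pK1 cells. HOXC10, which acts in the lumbar region and hindlimb, was at 134, 318 and 425 without and 166, 319.7 and 343 with 4-OHT in PAX3-FKHR-ER cells, and at 201, 374 and 235 without and 172, 346 and 295 with it in pK1 cells. All replicate 1 arrays were below all others for HOXC10, whereas for HOXC6 the pK1 array without 4-OHT of replicate 1 reached into the others. HOXC11, its neighbour, was at 125, 206 and 203 without and 114, 194 and 169.9 with 4-OHT in PAX3-FKHR-ER cells, and at 151, 177 and 131 without and 153, 159 and 138 with it in pK1 cells. HOXC8 stayed between 3.65 and 30.4 and HOXC13 between 12.1 and 49.6.

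**Figure D2:**
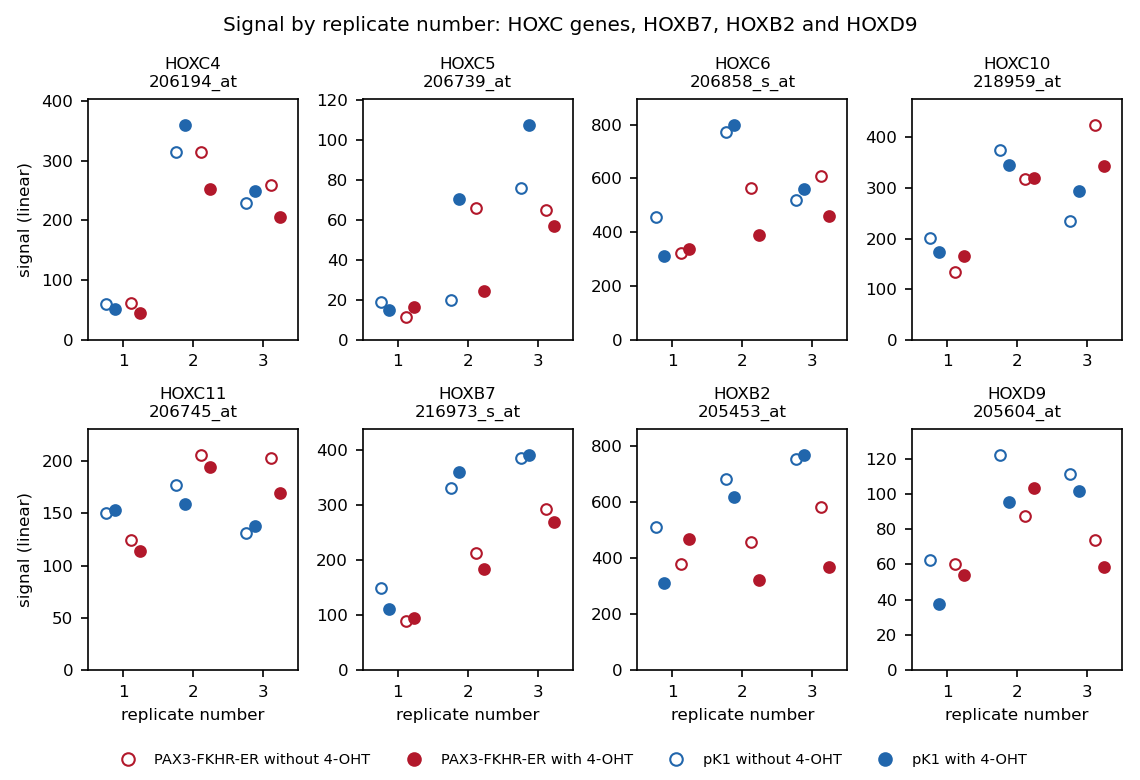
Linear signal on every array by replicate number for HOXC4, HOXC5, HOXC6, HOXC10, HOXC11, HOXB7, HOXB2 and HOXD9, with open points without and filled points with 4-OHT, red for PAX3-FKHR-ER and blue for pK1. For HOXC4 the 4 points of replicate 1 end at 61.6 and the other 8 begin at 206, while HOXB2 and HOXC11 overlap between numbers.

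In the HOXD cluster, HOXD9 205604_at was at 60.0, 87.8 and 74.1 without and 53.8, 104 and 58.8 with 4-OHT in PAX3-FKHR-ER cells, and at 62.3, 122 and 111 without and 37.7, 95.5 and 101 with it in pK1 cells. Its other probe set, 205605_at, did not exceed 7.07 on any array. HOXD1 205975_s_at was at 61.9, 102 and 60.1 without and 61.7, 105 and 50.9 with 4-OHT in PAX3-FKHR-ER cells, and at 109, 97.5 and 62.3 without and 46.5, 84.8 and 51.2 with it in pK1 cells. The groups overlapped for HOXD9 205604_at and HOXD1 205975_s_at. The other HOXD1 probe set, 205974_at, ranged from 3.02 to 21.8. It and HOXD9 205605_at did not overlap in some of the group comparisons given below. HOXD4 stayed between 27.1 and 59.6.

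HOXD10 to HOXD13 are the genes of the distal limb. HOXD10 was at 1.84, 4.97 and 2.19 without and 2.65, 8.71 and 2.75 with 4-OHT in PAX3-FKHR-ER cells, and at 2.65, 56.6 and 1.91 without and 1.53, 53.0 and 2.22 with it in pK1 cells. HOXD11 was at 9.08, 22.9 and 12.6 without and 1.78, 7.66 and 14.8 with 4-OHT in PAX3-FKHR-ER cells, and at 19.9, 132 and 9.45 without and 22.9, 94.6 and 18.9 with it in pK1 cells. In both, the pK1 replicate 2 arrays alone were high.

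HOXD13, the gene of the digits, did the same in its 207397_s_at probe set. It was at 1.41, 7.10 and 21.3 without and 1.43, 20.0 and 20.3 with 4-OHT in PAX3-FKHR-ER cells, and at 2.33, 94.6 and 2.87 without and 1.36, 89.3 and 2.56 with it in pK1 cells. PAX3-FKHR-ER replicates 2 and 3 were intermediate. Its brighter probe set, 207398_at, was at 26.3, 80.0 and 71.2 without and 35.6, 102 and 50.2 with 4-OHT in PAX3-FKHR-ER cells, and at 32.4, 170.0 and 38.3 without and 19.7, 99.5 and 30.2 with it in pK1 cells, where PAX3-FKHR-ER replicate 2 reached the pK1 replicate 2 pair. HOXD12 stayed between 0.964 and 2.86 on all 12 arrays, with 1.28 and 1.21 on the pK1 replicate 2 pair. HOXA2 ranged from 1.54 to 19.7.

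Whether 4-OHT altered HOX signal in PAX3-FKHR-ER cells is the first comparison the design implies. None of the 31 HOX probe sets passed limma's test at an adjusted p under 0.05, and 0% of all 22215 probe sets did. That fit did not pair the arrays. At an unadjusted p under 0.05 there were 1 HOX probe set and 413 in all, and 3 and 1410 with the pair of arrays as a block. The HOX median was -0.03 with 14 of 31 above 0, and the median of all probe sets was -0.02. Leaving out 1 array turned its sign: it was 0.13 with 24 above 0 without the replicate 1 array with 4-OHT, and 0.05 and 0.06 without the arrays of replicates 2 and 3 lacking it. HOXD1 205974_at had the smallest p: it was at 4.00, 13.7 and 3.02 without and at 14.9, 21.2 and 17.3 with 4-OHT, a log2 difference of 0.59 (SE 0.21, limma adjusted p 1.00). The values with 4-OHT were all above those without, at signals under 22, and the other HOXD1 probe set was at -0.05. HOXB3 208414_s_at was at 15.3, 16.7 and 17.6 without and 25.1, 24.0 and 27.4 with it (0.35, SE 0.27), also without overlap. Those 2 were the HOX probe sets whose PAX3-FKHR-ER arrays with 4-OHT were all above the ones without, as were 2.31% of all probe sets, and 0 were all below, against 2.47%.

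Among probe sets with lower means, HOXB2 differed by -0.28 (SE 0.31) and HOXC6 by -0.28 (SE 0.35), with overlapping groups. Both were lower with 4-OHT in replicates 2 and 3 (HOXB2 -0.49 and -0.64, HOXC6 -0.52 and -0.39) and higher in replicate 1 (0.29 and 0.07). HOXC4 was lower in each of the 3 pairs (-0.34, -0.30 and -0.31) and HOXB6 205366_s_at higher in each (0.61, 0.32 and 0.66). In pK1 cells HOXB6 205366_s_at was also higher in each pair (0.29, 0.03 and 0.20), and HOXC4 went both ways (-0.19, 0.18 and 0.11). In total 5 HOX probe sets were higher and 4 lower in all 3 PAX3-FKHR-ER pairs, against 12.5% and 14.6% of all probe sets. With the pair of arrays as a block in limma, HOXB6 205366_s_at (SE 0.17, adjusted p 0.768), HOXD1 205974_at (SE 0.19, adjusted p 0.768) and HOXC4 (SE 0.12, adjusted p 0.782) had an unadjusted p under 0.05. Still 0 HOX probe sets passed. In replicates 2 and 3 alone, paired, limma called 0.167% of all probe sets (37) and none of the 31, and HOXB2 came nearest with -0.56 (SE 0.11, adjusted p 0.142), then HOXC6 with -0.46 (SE 0.10, adjusted p 0.201).

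**Figure D3:**
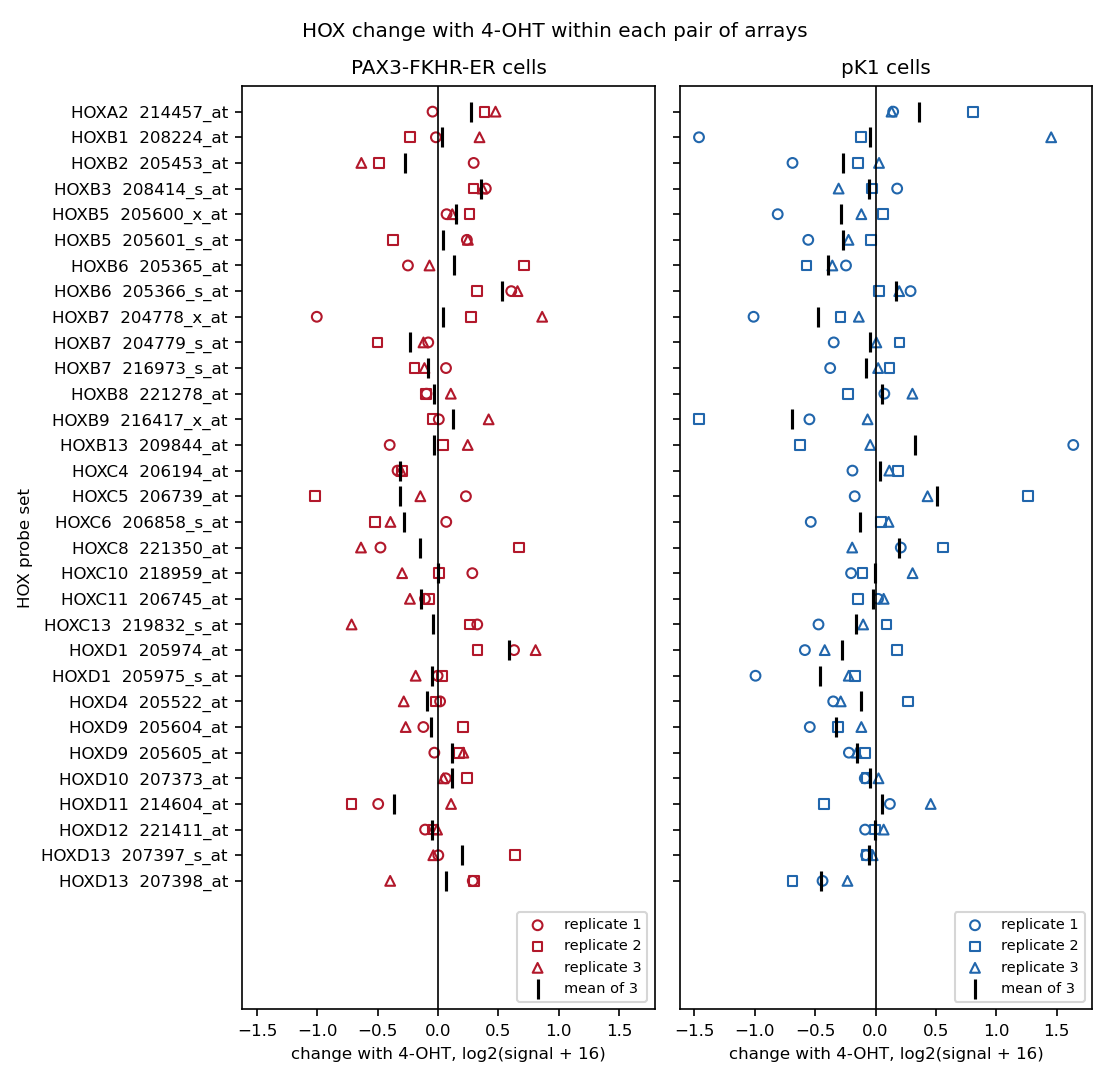
Change with 4-OHT of each HOX probe set (rows) in each of the 3 array pairs of a construct (circle, square and triangle for replicates 1, 2 and 3; vertical bar for their mean), as a difference of log2(signal + 16), PAX3-FKHR-ER cells on the left and pK1 cells on the right. The points of most rows lie on both sides of 0, and in PAX3-FKHR-ER cells those of HOXB3, HOXB6 205366_s_at and HOXD1 205974_at lie above it and those of HOXC4 below. In pK1 cells those of HOXB6 205366_s_at also lie above 0.

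In pK1 cells, where 4-OHT has no fusion protein to act on, 0 HOX probe sets and 0% of all passed limma's test (0 and 362 at an unadjusted p under 0.05). The HOX median was -0.06 with 8 of 31 above 0, beside -0.04 over all probe sets. It was 0.11 with 21 above 0 without pK1 with 4-OHT replicate 1, 0.08 with 19 without pK1 without 4-OHT replicate 2, and 0.00 with 16 when the arrays were set to equal medians. In all 3 pairs 2 HOX probe sets were higher and 9 lower with 4-OHT, against 10.3% and 18.7% of all probe sets. The 2 higher were HOXA2 and HOXB6 205366_s_at. HOXD9 205605_at (-0.15, SE 0.11) and HOXD1 205975_s_at (-0.46, SE 0.32) had the smallest p among the lower ones. HOXA2 (0.36, SE 0.28) and HOXC5 (0.51, SE 0.61) had it among the higher ones. HOXA2 was at 1.54, 3.98 and 7.37 without and 3.41, 19.0 and 9.62 with 4-OHT in pK1 cells, and at 2.60, 11.3 and 1.91 and then 2.01, 19.7 and 8.90 in PAX3-FKHR-ER cells. HOXD9 205605_at was at 7.07, 2.59 and 4.22 and then 3.80, 1.51 and 2.14 in pK1 cells, and at 4.65, 3.08 and 1.57 and then 4.21, 5.51 and 4.31 in PAX3-FKHR-ER cells. Both ranges lie under 20, and within each construct the arrays without and with 4-OHT overlap. With 4-OHT, HOXD9 205605_at did not overlap between constructs.

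The difference of the 4-OHT change between constructs was tested as an interaction, and 0 HOX probe sets and 0% of all passed (1 and 337 at an unadjusted p under 0.05). Its HOX median was 0.07, and that of all probe sets 0.03. HOXD1 205974_at differed most, by 0.86 (SE 0.29, limma adjusted p 1.00): in pK1 cells it was at 21.8, 8.83 and 16 without and 9.22, 12.1 and 7.89 with 4-OHT. HOXD9 205605_at differed by 0.27 (SE 0.15), HOXC5 by -0.82 (SE 0.86) and HOXC8 by -0.34 (SE 0.48). HOXC8 was at 16.7, 12.9 and 30.4 and then 7.48, 30.1 and 13.8 in PAX3-FKHR-ER cells, and at 3.65, 7.30 and 26.2 and then 6.72, 18.4 and 20.9 in pK1 cells. HOXD1 205974_at was higher with 4-OHT in all 3 PAX3-FKHR-ER pairs and HOXD9 205605_at lower in all 3 pK1 pairs, while the pairs of HOXC5 and HOXC8 went both ways within each construct. Leaving out 1 array turned the HOX median of this comparison, to -0.15 without pK1 with 4-OHT replicate 1 and -0.11 without pK1 without 4-OHT replicate 2.

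Between constructs without 4-OHT, 0 HOX probe sets and 0% of all passed (1 and 633 at an unadjusted p under 0.05). The HOX median, PAX3-FKHR-ER minus pK1, was -0.23 with 9 of 31 above 0, beside -0.01 over all. HOXD1 205974_at (-0.47, SE 0.21) and HOXC13 (-0.53, SE 0.29) had the smallest p among those lower, and HOXC8 (0.40, SE 0.34) and HOXC11 (0.17, SE 0.25) among those higher. HOXC13 was at 19.8, 12.1 and 35.2 in PAX3-FKHR-ER cells and 40.4, 45.5 and 28.7 in pK1 cells without 4-OHT, and at 28.8, 17.7 and 15.1 against 24.6, 49.6 and 25.6 with it. The largest difference, HOXB6 205366_s_at at -1.34 (SE 1.01), was -0.24 (SE 0.90) without the pK1 replicate 2 array, and the HOX median was then -0.02.

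With 4-OHT, again 0 HOX probe sets and 0% of all passed (0 and 580 at an unadjusted p under 0.05). The HOX median was -0.11, beside 0.03 over all, 0.12 without the pK1 replicate 2 array and 0.09 without the PAX3-FKHR-ER replicate 1 array. HOXD11 (-1.18, SE 0.61) and HOXB2 (-0.46, SE 0.31) had the smallest p among those lower, HOXD1 205974_at (0.39, SE 0.21) and HOXB3 (0.44, SE 0.27) among those higher. Leaving out the pK1 replicate 2 array moved HOXD11 to -0.65 (SE 0.60). The PAX3-FKHR-ER arrays were all above the pK1 arrays in 2 HOX probe sets, HOXD1 205974_at and HOXD9 205605_at, as in 4.35% of all, and all below in 1, HOXD11, as in 2.47% of all.

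HOXB7 was lower in PAX3-FKHR-ER than in pK1 cells in all 6 pairs of arrays with the same number and treatment label in 2 of its 3 probe sets, 216973_s_at and 204779_s_at. They were the 2 HOX probe sets of that kind, and 2.65% of all probe sets were. The third, 204778_x_at, was lower in 3 pairs and higher in 3. Arrays of a construct and number without and with 4-OHT deviated together, so the 6 pairs are not independent. The difference in 216973_s_at was -0.54 without 4-OHT and -0.55 with it (SE 0.16 for each with the replicate number as a block), and did not pass limma's test (adjusted p 0.750 and 0.801). No HOX probe set was higher in PAX3-FKHR-ER cells in all 6 pairs, against 2.52% of all.

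HOX signal differed between replicate numbers by more than between groups. The number was fitted together with the group, and the 2 arrays of a construct and number were a random block (correlation 0.367). Replicate 1 was lower than the mean of replicates 2 and 3 in 8 of 31 HOX probe sets at a limma adjusted p under 0.05, and 0 were higher. Over all probe sets 13.2% passed in either direction and 6.34% were lower. The HOX median was -0.54 with 26 of 31 below 0, beside -0.01 over all. The 8 belong to 6 genes, HOXB7 and HOXC4, HOXC5, HOXC6, HOXC10 and HOXD13.

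HOXC4 had the largest difference, with a mean of 54.7 ± 7.75 (SD, n = 4) on the replicate 1 arrays and 273 ± 51.9 (SD, n = 8) on the others, a log2 difference of -2.02 (SE 0.14, limma adjusted p 1.38e-05). All HOXB7 probe sets were lower in replicate 1: 216973_s_at was at 111 ± 27.5 (SD, n = 4) against 304 ± 77.6 (SD, n = 8), a difference of -1.31 (SE 0.15, limma adjusted p 0.000348), 204779_s_at had -1.09 (SE 0.16, limma adjusted p 0.0018) and 204778_x_at -1.40 (SE 0.36, limma adjusted p 0.0282). HOXC10 was at 168 ± 27.5 (SD, n = 4) against 332 ± 55.8 (SD, n = 8), a difference of -0.91 (SE 0.19, limma adjusted p 0.0105). The replicate 1 arrays did not overlap the others in HOXC4, HOXC5, HOXC10 and the HOXB7 probe sets, and did in HOXC6 and HOXD13 207398_at. HOXD13 207398_at was at 28.5 ± 7.02 against 80.2 ± 45.0 (SD), a difference of -0.99 (SE 0.27, limma adjusted p 0.0320), and 207397_s_at had -1.12 (SE 0.43, limma adjusted p 0.1245). HOXC5 was at 15.4 ± 3.04 against 60.7 ± 28.1 (SD), a difference of -1.19 (SE 0.33, limma adjusted p 0.0398), and HOXC6 at 357 ± 67.9 against 584 ± 142 (SD), a difference of -0.67 (SE 0.19, limma adjusted p 0.0418).

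Between HOXC6 and HOXC10 on the map, HOXC8 had -0.54 (SE 0.28) at signals under 31 and did not pass. HOXC11 (-0.31, SE 0.17), HOXC13 (0.03, SE 0.29) and HOXB2 (-0.40, SE 0.23) did not pass either. Among the 5 members above 0, HOXB13 had 0.82 (SE 0.41, limma adjusted p 0.256): its values were 42.9, 28.6, 9.42 and 63.1 on the replicate 1 arrays, 40.5 and 20.7 on the pK1 replicate 2 pair and 5.53 to 9.52 on the other 6. All 4 replicate 1 arrays were below the other 8 in 9 HOX probe sets, as in 6.62% of all, and above in 0, against 7.22% of all. The 9 were those of HOXB7, HOXB6 205366_s_at, HOXB9, HOXC4, HOXC5, HOXC10 and HOXD13 207397_s_at.

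**Figure D4:**
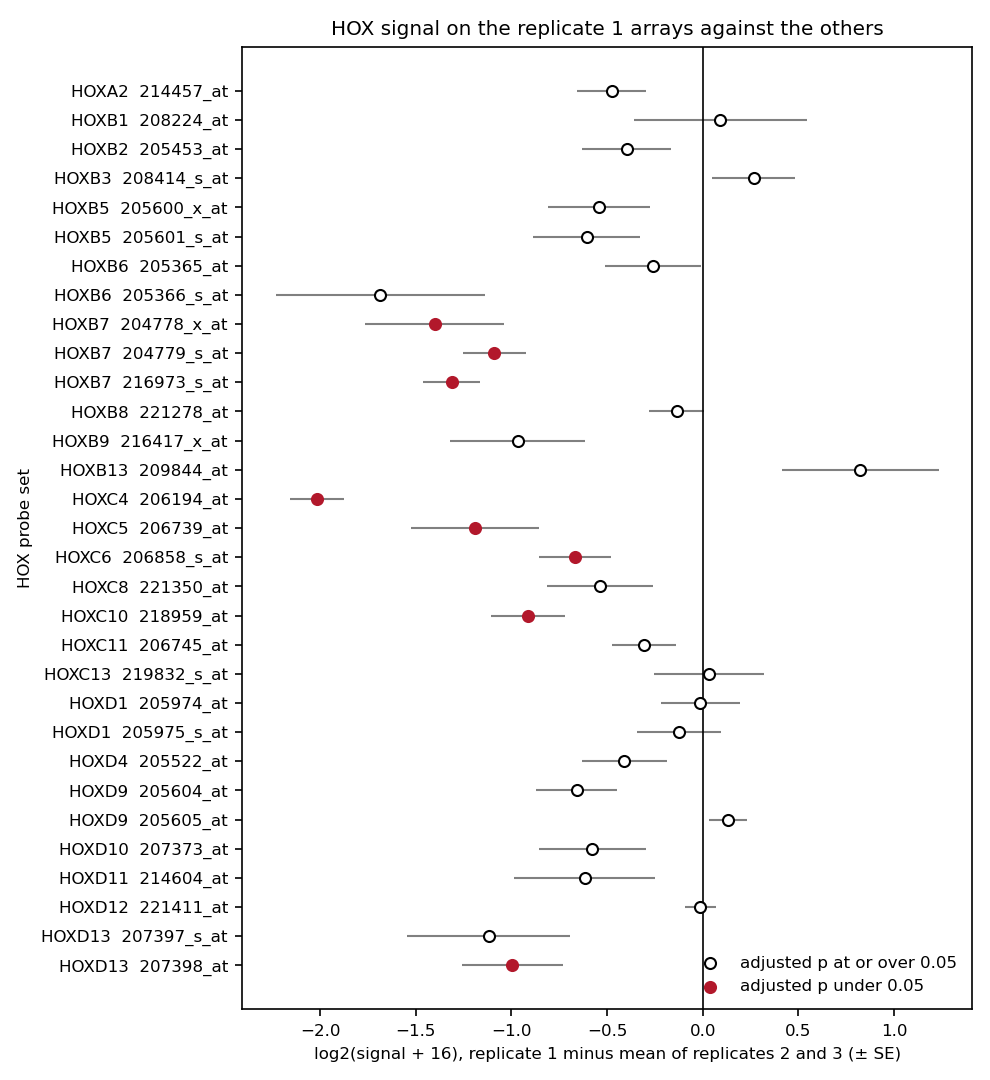
Difference of each HOX probe set on the replicate 1 arrays from the mean of replicates 2 and 3, on log2(signal + 16), with bars of 1 standard error; filled red points had a limma adjusted p under 0.05. HOXC4 lies farthest to the left at -2.02, all 8 filled points lie below 0, and HOXB13 lies farthest to the right at 0.82.

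Within each construct the numbers were compared without the random block, so the 2 arrays of a pair counted as separate samples. This called 10 HOX probe sets lower and 1, HOXB13, higher in PAX3-FKHR-ER cells, where 10.3% of all were lower and 10.8% higher. In pK1 cells it called 15 lower, where 8.78% of all were. HOXC4 was at -1.97 in the first and -2.06 in the second, and HOXC10 at -1.14 and -0.68. Without the pK1 replicate 2 pair, a setting chosen after seeing the data, 12 HOX probe sets were lower, as were 11.9% of all, and 1 higher, as were 12.7% of all, and HOXC4 was at -1.97. With each pair averaged to 1 value, 3 were called, HOXC4 and the HOXB7 probe sets 216973_s_at and 204779_s_at. Leaving out 1 array at a time gave 4 to 8 calls, with 4 without pK1 with 4-OHT replicate 1, 5 without replicate 1 of PAX3-FKHR-ER cells lacking 4-OHT, and 5 without pK1 with 4-OHT replicate 3. Poly-A control signal, given above, moved with the replicate number, and its part in the result was not tested. The log2 ratio of the 3' to the 5' probe set of GAPDH was -0.25 to -0.12 on the replicate 1 arrays and -0.15 to 0.23 on the others, and that of ACTB -0.03 to 0.07 and -0.26 to 0.70, with both upper ends on pK1 replicate 2 with 4-OHT.

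Genes that act on or with HOX genes were counted in the same comparison. Over all probe sets 6.84% were higher and 6.34% lower in replicate 1, and the counts below are to be read against those shares. Of 23 probe sets of TALE cofactors, 5 were higher and 1 lower. The lower one was MEIS2 207480_s_at (-1.54, SE 0.22, limma adjusted p 0.00125), a HOX cofactor, at 96.0 to 144 on the replicate 1 arrays and 265 to 504 on the others, without overlap. PKNOX2 219046_s_at and PKNOX1 216004_s_at, of TALE proteins that pair with PBX, were at 0.80 each. The other higher ones were PKNOX2 63305_at (0.72, SE 0.19) and 222171_s_at (0.86, SE 0.24), and TGIF2 218724_s_at (0.66, SE 0.19). The PKNOX1 probe set did not exceed 29.7 on any array, and the other PKNOX1 probe sets did not pass. Of 32 Polycomb probe sets, 4 were higher and 1 lower: CBX2 was higher by 1.88 (SE 0.28), PCGF1 by 1.58 (SE 0.44) in 210022_at and 0.59 (SE 0.17) in 210023_s_at, and PHC1 by 1.17 (SE 0.19). The lower one was YY1 200047_s_at (-0.52, SE 0.15, limma adjusted p 0.0435), which encodes a DNA-binding protein, named after its value was seen. Of 25 trithorax and H3K27 demethylase probe sets, 3 were higher and 0 lower. They were PSIP1 205961_s_at (1.27, SE 0.32) and 209337_at (1.16, SE 0.30), and 211790_s_at of the methyltransferase KMT2D (0.96, SE 0.19). The KMT2D probe set was dim, at 22.3 to 41.4 on the replicate 1 arrays and 2.91 to 12.7 on the others. Other probe sets of KMT2D and PSIP1 did not pass, nor did ASH2L at 0.44 (SE 0.14). Of 27 retinoic acid pathway probe sets, 2 were higher and 1 lower. Both higher ones were of the receptor RXRA, by 1.10 (SE 0.16) in 202449_s_at and 0.98 (SE 0.26) in 202426_s_at. The binding protein CRABP2 was lower, at -1.68 (SE 0.21), and CYP26B1, which breaks down retinoic acid, was at -1.12 (SE 0.34) and did not pass.

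None passed among 13 probe sets of CDX genes, GDF11 and cluster neighbours (SKAP2 216899_s_at -0.34), 13 of other homeobox genes of limb or muscle (MSX2 0.91) and 11 myogenic markers (MYOD1 0.99, SE 0.50). Among fibroblast markers COL1A2 was higher (1.07) and COL1A1 lower (-0.89), 1 of 14 each way, and none of the haematopoietic, endothelial, epithelial and neural markers passed. List medians were 0.17 for TALE cofactors, -0.11 for Polycomb, 0.17 for trithorax and -0.09 for retinoic acid genes, beside -0.01 over all probe sets and -0.54 for HOX. In the 5 comparisons of groups, no probe set of any of the 12 lists passed. With 4-OHT in PAX3-FKHR-ER cells the smallest p within the cofactor lists were those of PBX3 204082_at (0.58, SE 0.25), KMT2A 212078_s_at (0.47, SE 0.27), RARB 208413_at (-0.34, SE 0.16), YY1 201901_s_at (0.33, SE 0.20) and SKAP2 217035_at (0.57, SE 0.32).

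Replicate 3 against replicate 2 called 0 of 31 HOX probe sets and 0.018% of all (4). At an unadjusted p under 0.05 there were 7 HOX probe sets and 2029 in all. HOXD10 (-1.14, SE 0.32, limma adjusted p 0.347) and HOXD13 207398_at (-1.02, SE 0.31, limma adjusted p 0.359) were lowest in p, and HOXB7 216973_s_at (0.32, SE 0.17) and HOXC5 (0.68, SE 0.39) had the smallest p among those higher in replicate 3. In pK1 cells alone 7 HOX probe sets were lower in replicate 3, 2 of HOXB5, 1 of HOXB6, HOXD10, HOXD11 and 2 of HOXD13, and 5.98% of all were lower there. HOXB6 205366_s_at was at -2.63 (SE 0.19, limma adjusted p 0.00229), HOXD13 207397_s_at at -2.53 (SE 0.21), HOXD11 at -2.10 (SE 0.31), HOXD10 at -1.97 (SE 0.18) and HOXB5 205601_s_at at -1.60 (SE 0.19). That fit held arrays of 1 construct and no random block, so its spread is the one within pairs, which may each share a population.

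The pK1 replicate 2 pair was then described by a rule chosen after its values were seen, so no test is given. In 6 HOX probe sets both arrays of that pair had a signal (plus 16) at least 2-fold over the highest of the other 10: HOXB5 (2 probe sets), HOXB6 205366_s_at, HOXD10, HOXD11 and HOXD13 207397_s_at. This held for 0.738% of all probe sets (164). No HOX probe set met the rule in another pair, where the share of all was 0% for PAX3-FKHR-ER replicate 1, 0.126% for PAX3-FKHR-ER replicate 2, 0.0045% for PAX3-FKHR-ER replicate 3, 0% for pK1 replicate 1 and 0.302% for pK1 replicate 3. With no fold asked for, both arrays were above all other 10 in 10 HOX probe sets, as in 9.37% of all, and below in 0, against 7.13% of all. The 10 add HOXB9, HOXC4, HOXC6 and HOXC13 to the 6. The count was 1 with a fold of 3, HOXB6, and 2 with 64 added in place of 16.

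The genes that were high there lie at HOXB5 and HOXB6 in one cluster and at HOXD10, HOXD11 and HOXD13 in another. Their neighbours did not all share it: HOXB8 was at 7.80 and 4.34 on the pair against 3.72 to 13.3 elsewhere, HOXD12 at 1.28 and 1.21, HOXD9 205604_at at 122 and 95.5 against 37.7 to 111, and HOXB2 and HOXB7 216973_s_at were passed by pK1 replicate 3. HOXD12, whose window printed above holds ATTA as those of HOXD10 and HOXD11 do, was thus the gene between HOXD11 and HOXD13 with no signal above 2.86. No other member probe set was of HOXD12, so a low transcript and a probe set that does not respond could not be told apart.

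**Figure D5:**
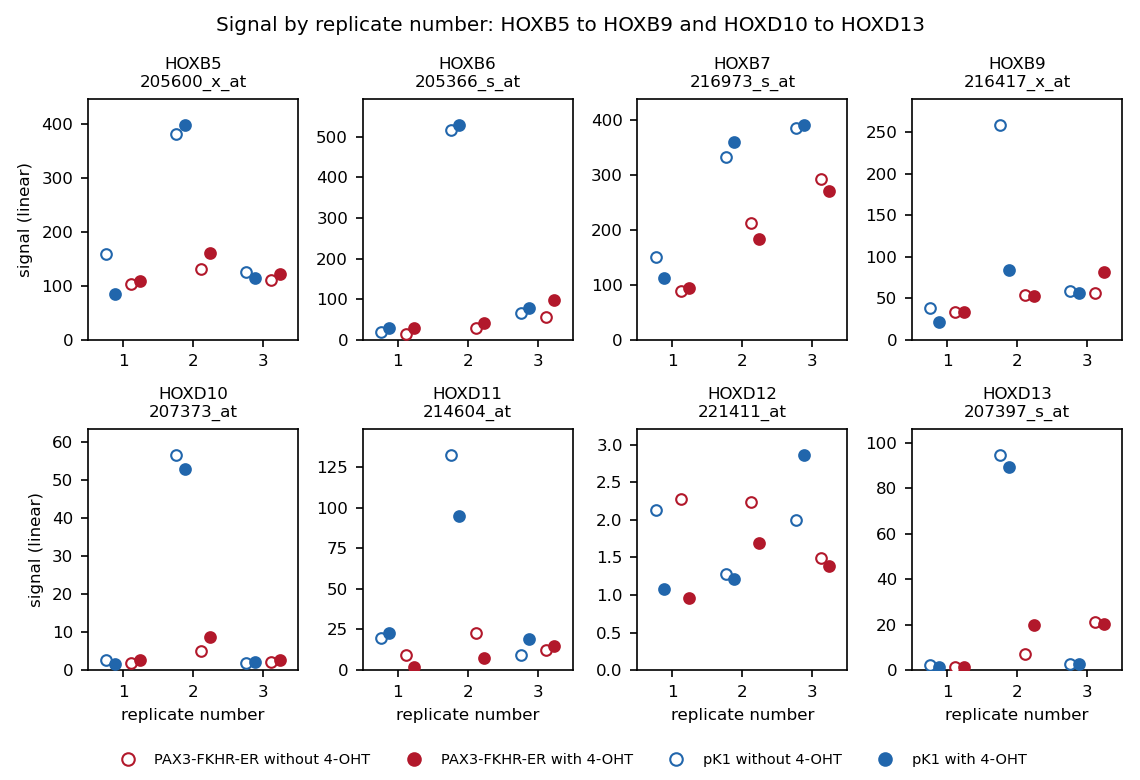
Linear signal on every array by replicate number for HOXB5, HOXB6, HOXB7 and HOXB9 (top) and HOXD10, HOXD11, HOXD12 and HOXD13 (bottom), with open points without and filled points with 4-OHT, red for PAX3-FKHR-ER and blue for pK1; each panel has its own scale. The pK1 replicate 2 points stand above the rest for HOXB5 205600_x_at, HOXB6 205366_s_at, HOXD10, HOXD11 and HOXD13 207397_s_at, at 518 and 530.0 for HOXB6, and not for HOXB7 or HOXD12, whose panel ends near 3.

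Other genes moved on the same 2 arrays, and these too were picked after their values were seen. Over all probe sets, 9.37% were above all other 10 arrays on that pair and 7.13% below. The counts below are to be read against those shares. The muscle markers named above were low. GMNN, the geminin gene, was at 842 and 980.0 against 424 to 611, and SKAP2 204362_at, which borders the HOXA cluster, at 142 and 136 against 16.9 to 93.9. In the list of CDX genes, GDF11 and cluster neighbours 4 of 13 probe sets were above all other arrays and 0 below. The 4 were GMNN and SKAP2 204361_s_at, 204362_at and 216899_s_at, and none was of a CDX gene, GDF11, EVX1 or SKAP1. In the retinoic acid list 4 of 27 were above and 3 below: RARB 205080_at, a receptor that is itself induced by retinoic acid, was at 168 and 148 against 31.7 to 71.8, ALDH1A2 207016_s_at, which makes retinoic acid, at 402 and 363 (the others reached 195.9), CYP26A1, which breaks it down, at 52.5 and 75.1 against 8.76 to 37.7, and DHRS3 at 223 and 228 against 13.3 to 101. The 3 below were those of other receptors, RXRA 202449_s_at at 151 and 175 against 200.2 to 519.6, RARG 204189_at at 14.1 and 19.2 against 23 to 70.4, and RARA 211605_s_at at 5.38 and 7.30 against 8.32 to 63.3. RARB 217020_at, at 58.6 and 43.4 against 53.5 to 103, did not follow 205080_at. On only 1 array of the pair were RARB 208530_s_at (117 and 46.7 against 10.3 to 47.4) and ALDH1A2 207015_s_at (78.8 and 35.0 against 2.52 to 65.8) above the others. Probe sets of the TALE cofactor list were above in 0 and below in 3 of 23. TGIF1 was at 103 and 90.5 against 246 to 537, and PBX2 211097_s_at at 52.8 and 33.2 against 61.9 to 85.2. PBXIP1 212259_s_at, of a PBX-interacting protein that is not itself of the TALE class, was at 35.0 and 38.6 against 135 to 232. The other PBX2 and PBXIP1 probe sets were not below all other arrays. Polycomb probe sets were above in 4 and below in 3 of 32, trithorax ones in 1 and 0 of 25, other homeobox genes in 2 and 2 of 13. The part of the muscle marker difference in the HOX values was not tested.

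The arrays of a 4-OHT pair were closer to each other in HOX signal than arrays of a group. The mean absolute log2 difference over the 31 probe sets had a median of 0.31 within the 6 pairs (0.22 to 0.44), 0.62 between different numbers of a group (0.30 to 1.17, n = 12) and 0.38 between constructs at the same number and treatment (0.24 to 0.84, n = 6). Over all probe sets the medians were 0.29, 0.48 and 0.36. The share of a probe set's variance that lay between the 6 pairs had a median of 79.8% for HOX and 71.7% for all, and of 94.3% for the 10 HOX probe sets with a mean of at least 100, beside 85.7% for the 8375 of all with such a mean.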

How the data were processed

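RNA of 12 RD cell cultures was hybridized to Affymetrix human genome arrays, 1 per sample. The authors deposited a table of probe set intensity values on a linear scale, and the submitters' processing notes name MAS5 and GCOS without versions. Per the labels' protocols, RNA was taken with a column kit. The signals were not scaled again. The 68 control probe sets were left out, which left 22215. Of these, 19065 had 1 symbol in the array annotation, 1043 several and 2107 none, and all 31 HOX entries matched the RefSeq table by Entrez identifier.

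Signals were tested as log2(signal + 16) with limma 3.58.1 in R 4.3.3 (lmFit, eBayes with intensity trend), two-sided, with Benjamini-Hochberg adjustment over all 22215 probe sets and a threshold of 0.05. No filter on signal was used. Group comparisons used group means of all 12 arrays without a block, so their spread includes the one between pairs. A block was used for them only as an alternative. Replicate numbers were compared with group as a covariate and the construct and number pair as a random block (duplicateCorrelation). The scripts were tested on simulated data. The plots come from matplotlib 3.10.9 under Python 3.11.15.

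Same-numbered arrays deviated together from their group means: the correlations were 0.755, 0.563 and 0.556 between PAX3-FKHR-ER arrays without and with 4-OHT, 0.702, 0.697 and 0.702 between pK1 arrays, 0.588, 0.107 and 0.362 between constructs without and 0.505, 0.141 and 0.274 with 4-OHT. All were over 0.1, the bar set for pairing. Except in the main group comparisons, which had no block, the numbers were therefore taken as pairs, from the data and not from the labels. Between constructs this holds least for replicates 2 and 3: replicate 2 of PAX3-FKHR-ER correlated more with pK1 replicate 3 (0.192 without and 0.222 with 4-OHT) than with pK1 replicate 2.

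Values of every array were given for the 12 HOX genes of highest mean signal, by their brightest probe set, and in each comparison for up to 6 called HOX probe sets of smallest p, or the 2 each way where none was called, and up to 3 genes per related list. The HOX genes and all lists were chosen with earlier results of these data known. Alternatives were another signal filter, offset, scaling, trend, block, subset of arrays and each array left out.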

Additional observations from a re-analysis of the deposited data

How the results depend on the processing

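The 5 group comparisons called 0 HOX probe sets under every alternative run. A block was the pair of arrays in the 4-OHT comparisons and the replicate number between constructs. With it limma still called 0, with smallest HOX adjusted p-values of 0.768, 0.784, 0.924, 0.750 and 0.801 in the order of the report. Unadjusted p-values were then under 0.05 for 1410, 1359, 1053, 1460 and 1377 of all probe sets. For replicate 1 against the others, 8 HOX probe sets were called, and 3 with pairs averaged first (845 of all against 2927). Averaging leaves fewer samples, 1 per pair, and does not count the arrays of a pair as separate. The smallest HOX limma adjusted p was then 0.00815, against 1.38e-05 in the main fit. There were 15 HOX calls with pK1 arrays only, fitted without the random block, and 13 without the pK1 replicate 2 pair (5467 of all), where the cause was not tested. The 40% signal filter gave 9, an offset of 1 gave 10, equal medians 7 and no random block 11 (4435 of all); leaving out each array gave 4 to 8. HOXC4 and the HOXB7 probe sets 216973_s_at and 204779_s_at passed in all of these; HOXC6 lost its call in 11 of 23 alternatives, HOXC5 in 9, HOXD13 207398_at in 7, HOXB7 204778_x_at in 5 and HOXC10 in 1. Replicate 3 against replicate 2 called 0 HOX probe sets in all alternatives except pK1 arrays only, without the random block, with 7 (2583 of all against 4). The cause was not tested. The pK1 replicate 2 count of 6 became 1 with a fold of 3 and 2 with an offset of 64, both chosen after seeing the data, and stayed at 6 to 7 when single arrays were left out. With 3 arrays per group, and 14 HOX probe sets under the 40% signal, small changes could not be measured.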
